A study of Mus musculus with 15 samples.

Results

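The genes described here are 8 genes of cholesterol synthesis: Hmgcs1, Idi1, Fdps, Fdft1, Sqle, Lss and Cyp51, which encode enzymes of the pathway, and Insig1, which encodes a protein that holds the pathway back. They were taken by gene name from a table of 33603 loci, of which 23589 carry a gene name, and 7 of the 8 had counts. RNA-Seq libraries were made from 5 tissues of male C57BL/6 mice, namely liver, fat of the epididymis, mucosa of the colon, hypothalamus and hippocampus. AL mice were fed ad libitum and were 5 months of age, DR mice received 60% of the food eaten by AL mice (40% restriction) for 1 month from 4 months of age and were also 5 months of age, and DR-AL mice had the same month of DR followed by 2 months of feeding ad libitum and were 7 months of age. Diet and age therefore cannot be told apart wherever DR-AL mice are compared. Each of the 15 libraries was made from the RNA of 1 tissue and 1 diet, pooled from 5 mice, so a diet within a tissue has a single library with no replicate check.

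Cholesterol is built from acetyl-CoA through mevalonate, isoprenoid diphosphates, squalene and lanosterol. The genes of these steps share a transcription factor, SREBP-2, which leaves the endoplasmic reticulum with its escort SCAP when sterols in the membrane are low, whereas Insig proteins hold SCAP back when sterols are plentiful. The liver makes much of the cholesterol of the body and exports it in lipoproteins, while the brain makes its own behind the blood-brain barrier.

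In the GRCm38 build, GENCODE M21 places the genes in the order of the pathway at chr13:119690379-119708260 (Hmgcs1), chr13:8885501-8892451 (Idi1), chr3:89093588-89101959 (Fdps), chr14:63145150-63179578 (Fdft1), chr15:59315077-59331192 (Sqle), chr10:76531588-76557138 (Lss), chr5:4081145-4104746 (Cyp51) and chr5:28071363-28078662 (Insig1). Counts covered whole loci, so exons and UTRs are not separated. The counted loci were longer than the GENCODE gene for Sqle (59166 bases against 16116), Fdft1 (55728 against 34429) and Lss (30667 against 25551). For the other genes the lengths were closer, as for Cyp51 (24072 against 23602). The part of the added bases in the counts of Sqle, Fdft1 and Lss was not tested. Promoter sequences were printed because the measured members moved together. They are from RefSeq (GRCm38.p6), in which 5 of the 8 genes matched, all but Fdps, Fdft1 and Sqle. The window searched was the 250 bases before the RefSeq start, read 5′ to 3′ on the strand of the gene, and the printed stretch ends where a GENCODE transcript begins. Capitals mark matches on either strand of TCACNCCA (the core of one form of sterol regulatory element), CCAAT (the NF-Y box, ATTGG on the other strand) and GGGCGG (the GC box). The lines give Hmgcs1 at chr13:119690101-119690350 (+ strand), Lss at chr10:76531355-76531587 (+ strand), Cyp51 at chr5:4104747-4104947 (- strand) and Insig1 at chr5:28071162-28071362 (+ strand).
Hmgcs1: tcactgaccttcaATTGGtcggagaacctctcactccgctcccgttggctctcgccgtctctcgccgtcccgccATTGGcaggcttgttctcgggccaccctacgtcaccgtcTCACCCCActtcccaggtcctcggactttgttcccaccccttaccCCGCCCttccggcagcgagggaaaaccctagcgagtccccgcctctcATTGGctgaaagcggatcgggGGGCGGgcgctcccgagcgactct
Lss: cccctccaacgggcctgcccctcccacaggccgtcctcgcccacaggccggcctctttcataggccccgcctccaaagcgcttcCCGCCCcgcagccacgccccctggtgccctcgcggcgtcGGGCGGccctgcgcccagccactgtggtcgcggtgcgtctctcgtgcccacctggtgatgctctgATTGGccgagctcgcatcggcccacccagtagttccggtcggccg
Cyp51: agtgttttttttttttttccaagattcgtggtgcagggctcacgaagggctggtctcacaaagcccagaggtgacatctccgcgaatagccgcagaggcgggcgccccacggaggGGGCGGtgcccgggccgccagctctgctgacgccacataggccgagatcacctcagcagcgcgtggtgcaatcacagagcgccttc
Insig1: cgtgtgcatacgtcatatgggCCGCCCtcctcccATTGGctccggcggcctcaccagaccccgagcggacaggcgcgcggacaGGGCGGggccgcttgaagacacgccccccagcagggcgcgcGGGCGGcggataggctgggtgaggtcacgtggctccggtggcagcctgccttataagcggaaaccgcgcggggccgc

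All 5 windows held CCAAT, with 8 matches in all, and all 5 held GGGCGG, with 9 matches. Of 32851 promoter windows of the same length, 33.8% held CCAAT and 32.7% held GGGCGG. The 5 windows had 51.2% (Idi1) to 73.6% (Lss) GC, and the share over all windows was not matched for GC. TCACNCCA was present in 1 of the 5, against 3.67% of all windows. This was Hmgcs1, the member with no counts in any library, at positions -137 to -130 from the start. The longer TCACNCCAC, whose first 8 letters are that motif, was found at the same place in Hmgcs1 and in 1.05% of all windows. CACGTG (the E box) was present in Insig1 alone of the 5, at -101 to -96, against 6.02% of all windows. In Idi1, whose window was not printed, ATTGG stood at -45 to -41 and at -14 to -10, and its only GGGCGG at -69 to -64. A GENCODE transcript of Idi1 begins after -106, so these matches lay past its start. In Cyp51 the only CCAAT, at -29 to -25, lay beyond the printed stretch, which ended at -50 where a transcript begins. A match is a description of the letters and says nothing of binding.

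Library totals on named loci ran from 21767088 to 40500130 counts, with a median of 26554699. Levels between diets are given as CPM, the count of a gene scaled to 1000000 counts on named loci. A gene was called higher or lower between 2 libraries when a Z test on their counts, adjusted by Benjamini-Hochberg over all named loci tested, passed 0.05 and the higher library exceeded the lower by at least 25%. This test covers counting error between these libraries only and compares libraries, not conditions, so its p-values are not printed and the verbs below describe libraries. The 3 comparisons of a tissue share libraries and are not independent. In RNA of a whole tissue, fewer cells of a type and less RNA per cell cannot be told apart. The marker lists of liver, adipocytes, colonocytes, goblet cells, hypothalamus and hippocampus were each highest in their own tissue, but Alb, the albumin gene, was listed at 0 in all 15 libraries, liver included, and the fat libraries also held markers of other tissues, given with the fat values.

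Hmgcs1, HMG-CoA synthase, which condenses acetyl-CoA units ahead of mevalonate, had 2 loci in the table, both on an unplaced contig of chromosome 13, and both were listed at 0 in every library. All 127 named loci on unplaced contigs were at 0 in all libraries, against 9.66% of the 23462 named loci elsewhere. The zeros of Hmgcs1 therefore carry no information on its level, and the counts below are of the other 7 members.

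In liver every measured member was higher in DR than in AL, and the level was lower again in DR-AL. Summed over the 7 genes, the level was 441 CPM in AL, 1752 CPM in DR and 303 CPM in DR-AL. All 7 were called higher in DR, against 18.0% of 17408 loci, and all 7 by at least 2-fold, against 5.62% of loci. Among marker lists of other cells, the 5 colonocyte markers summed to 30.3, 119 and 20.2 CPM in the AL, DR and DR-AL liver libraries, none at 0 and Aqp8 the main part in DR (105 CPM), and the 4 astrocyte markers to 960, 1729 and 591 CPM, none at 0 and nearly all of it Aldh1l1, a gene that liver also expresses. Slc26a3 of the colonocyte list and Gfap of the astrocyte list were at most 0.459 and 0.572 CPM in liver. For DR over AL, 2 of 5 colonocyte markers were called higher and 0 lower. The 6 goblet cell markers summed to 7.08, 10.9 and 15.6 CPM, and 5 were called higher and 1 lower, against 18.0% and 9.92% of loci. The 8 liver markers summed to 53111 to 55585 CPM, with 3 of the 7 tested called higher and 2 lower. The part of these cells in the members' values was not tested. The median log2 fold change of the 7 genes was 2.04, whereas over the 12823 loci averaging 10 counts or more it was 0.08.

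Idi1, the isomerase that interconverts the isoprenoid diphosphate units, was measured in liver at 58.8 CPM in AL, 331 CPM in DR and 59.6 CPM in DR-AL. Fdps, which joins these units into farnesyl diphosphate, was measured at 44.4, 343 and 20.4 CPM in the same order. Fdft1, squalene synthase, was measured at 93.1, 241 and 45.4 CPM. Fdps had the greatest fold change of the 7, with a log2 value of 2.95 for DR over AL (95% exact interval of the counting error, 2.86 to 3.04), and Fdft1 the least, 1.37 (1.30 to 1.44). The DR library was the high one for each of these 3 genes, and DR-AL was below AL for Fdps and Fdft1 but not for Idi1.

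Sqle, squalene epoxidase, an oxygen-requiring and rate-controlling step, was measured at 16.3 CPM in AL, 105 CPM in DR and 9.35 CPM in DR-AL, 6.42-fold higher in DR than in AL. Lss, lanosterol synthase, which closes the sterol rings, was measured at 21.7, 83.4 and 14.9 CPM, 3.84-fold higher in DR. Cyp51, lanosterol demethylase, was measured at 67.7, 278 and 53.3 CPM, 4.11-fold higher in DR. These 3 late enzymes had the same order of libraries as Fdps and Fdft1, DR above AL above DR-AL.

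Insig1, the retention protein and itself a target of SREBP, was measured at 139 CPM in AL, 369 CPM in DR and 100.02 CPM in DR-AL. It was 2.67-fold higher in DR than in AL, and 3.69-fold lower in DR-AL than in DR. All 7 members were called lower in DR-AL than in DR, against 24.0% of loci, and all 7 by at least 2-fold, against 9.44%. The falls ran from 3.69-fold in Insig1 to 11.2-fold in Sqle and 16.8-fold in Fdps. Against AL, 6 of 7 were called lower in DR-AL, against 15.8% of loci, by 1.27-fold (Cyp51) to 2.17-fold (Fdps), and Idi1 differed by a log2 value of 0.02 (-0.09 to 0.12). The DR-AL and AL libraries also differ by 2 months of age. At an assumed biological coefficient of variation of 0.1 between mouse pools, 3 of these 6 were called, and at 0.2 none was. For DR over AL in liver, Fdft1 was not called at 0.2.

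**Figure D1:**
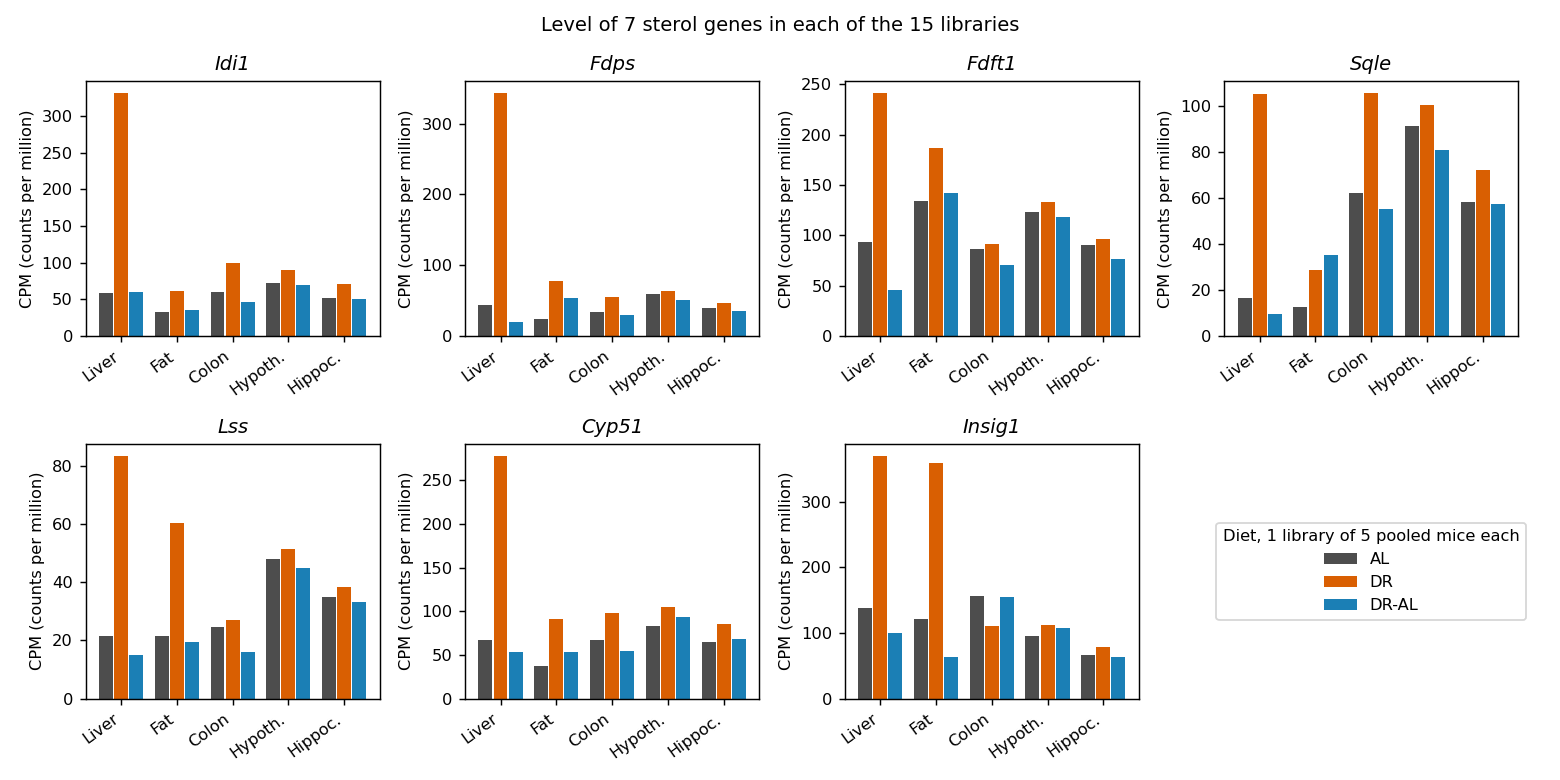
Bars give CPM, from 0, of each of the 7 measured genes in each of the 15 libraries, by tissue and diet, with 1 library and no error bar per bar. In liver the DR bar stands above AL and DR-AL for every gene (Fdps 343 CPM against 44.4 and 20.4), whereas in hypothalamus and hippocampus the 3 bars lie close together.

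Other enzymes of sterol synthesis were taken from a list of 14 genes in the table. In liver 10 of the 13 tested were called higher in DR than in AL, against 18.0% of all loci, and none lower. Their median log2 fold change was 1.52. Mvd, mevalonate diphosphate decarboxylase, rose from 5.13 to 34.9 CPM and was 2.45 CPM in DR-AL. Nsdhl, of the removal of the sterol methyl groups, rose from 23.3 to 141 CPM and was 10.1 CPM in DR-AL. Mvk, mevalonate kinase, rose from 7.92 to 32.8 CPM and was 5.59 CPM in DR-AL. Ggps1, which makes the geranylgeranyl diphosphate used outside sterol synthesis, and Hsd17b7 were among those not called, with log2 values of 0.06 and 0.18. From DR to DR-AL 11 of the 13 were called lower, against 24.0% of all loci, with a median of -1.49.

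Among 8 regulators of sterol sensing, 3 were called higher and 2 lower in the DR liver library than in AL, against 18.0% and 9.92% of all loci. Srebf1, which encodes SREBP-1, rose from 62.8 to 260 CPM and stood at 18.5 CPM in DR-AL. Insig2, the paralog of Insig1, moved the other way, from 175 CPM in AL to 72.8 CPM in DR and 597 CPM in DR-AL. Stard4, a sterol carrier, rose from 56.1 to 129 CPM, and Srebf2, which encodes SREBP-2, from 43.7 to 60.3 CPM.

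Of 5 genes of cholesterol uptake and lysosomal handling tested in liver, 1 was called higher and 1 lower in DR than in AL, shares near those of all loci. Vldlr, a lipoprotein receptor with a low level in liver, rose from 1.66 to 8.50 CPM, and Lipa, lysosomal acid lipase, fell from 223 to 141 CPM. Scarb1, the receptor for high density lipoprotein, was not called, with a log2 value of -0.29. Among 8 genes of efflux and LXR targets 2 were called higher, against 18.0% of all loci. They were Abcg5 (122 to 171 CPM) and Abcg8 (116 to 155 CPM), the partner subunits of the transporter that passes sterols into bile. Among 4 genes of esterification, Soat2, which esterifies cholesterol, rose from 38.4 to 66.8 CPM, Nceh1, a cholesteryl ester hydrolase, fell from 57.7 to 21.6 CPM, and Soat1 was not called, with a log2 value of -0.18. The medians of these 4 lists in liver lay between -0.13 and 0.05, against 0.08 over the loci averaging 10 counts or more.

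**Figure D2:**
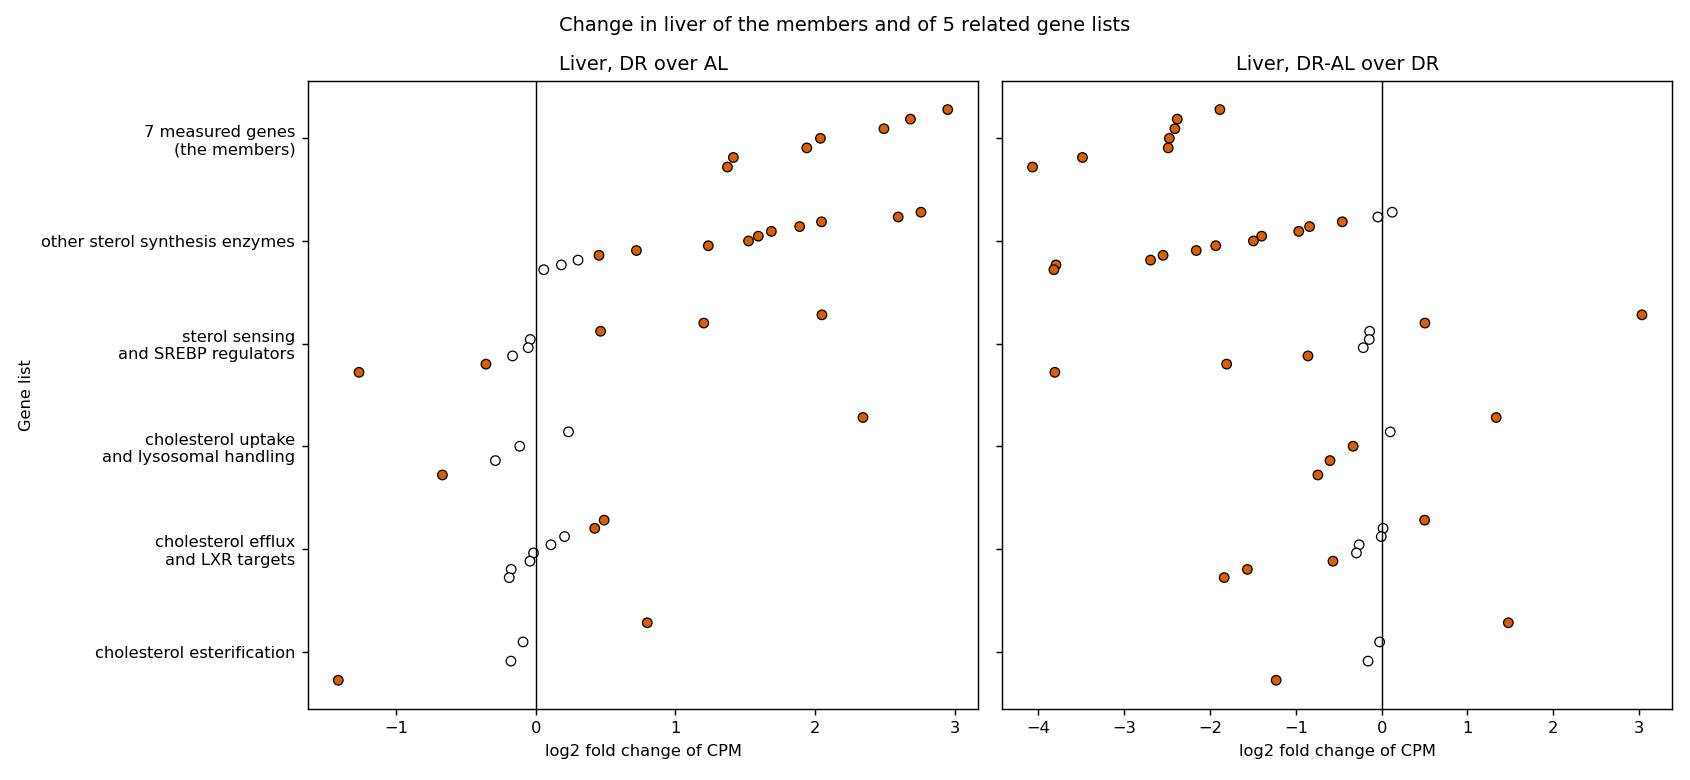
Each point is a gene, placed by its log2 fold change of CPM in liver for DR over AL (left) and DR-AL over DR (right), in rows for the 7 measured genes and 5 related lists, with orange points called and white points not called. The 7 genes and most of the other synthesis enzymes lie right of 0 on the left and left of 0 on the right, and the other lists spread to both sides.

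In fat the 7 members were also called higher in DR than in AL, against 35.2% of 20382 loci, and 5 of them by at least 2-fold, against 19.2%, while on the scale of the deposited FPKM no member reached 2-fold. The background is wide in this tissue: the median log2 fold change over 17306 loci was 0.24, and that of the members was 1.27. Insig1 was measured at 121 CPM in AL, 359 CPM in DR and 63.7 CPM in DR-AL. Fdps was measured at 23.7, 78.2 and 54.0 CPM, Lss at 21.6, 60.4 and 19.6 CPM, and Cyp51 at 37.7, 90.8 and 52.9 CPM. Idi1 stood at 32.1, 61.8 and 36.1 CPM and Fdft1 at 135, 187 and 142 CPM, the 2 members under 2-fold. The DR library was the highest for all of these 6, and Sqle alone was highest in DR-AL, with 12.4 CPM in AL, 28.8 CPM in DR and 35.3 CPM in DR-AL.

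From DR to DR-AL in fat 6 of 7 members were called lower, against 13.3% of loci, led by Insig1 (5.63-fold) and Lss (3.08-fold), and Sqle was not called. At an assumed coefficient of variation of 0.2 only Insig1 and Lss were called. For DR over AL in fat, Fdft1 and Idi1 were not called at 0.2. Against AL, 3 members were called higher in DR-AL, Sqle, Fdps and Cyp51, against 46.0% of loci, and 1 lower, Insig1 by 1.89-fold, against 11.9%. The fat values depend on how libraries are scaled. The deposited FPKM (fragments scaled by transcript length and by library) were divided by the CPM of the same gene and set against AL. The median of this value over the 7 members fell to 0.633 in DR fat and to 0.324 in DR-AL fat. In the other tissues the medians ran from 0.926 to 1.10, and single genes from 0.848 (liver DR-AL) to 1.19 (hippocampus DR-AL). On the FPKM scale no member was higher by at least 25% in DR-AL fat than in AL, and 6 were lower by as much. Fdft1 reversed for DR over AL, with a log2 value of -0.27 at a pseudocount of 0.1, and Sqle, Fdps and Cyp51 reversed for DR-AL over AL.

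The fat libraries also differed in genes of other cells. The 8 liver markers summed to 13441 CPM in AL, 5287 in DR and 4114 CPM in DR-AL, with Alb at 0 in each and with Cyp2e1, which adipose tissue also expresses, as the main part, and Apoa1 stood at 1221, 11.5 and 2.96 CPM. The 7 testis germ cell markers summed to 3.55, 575 and 2942 CPM, the 8 epididymis markers to 908, 3327 and 5309 CPM, and the 4 smooth muscle markers to 768, 2239 and 521 CPM, in the order AL, DR and DR-AL. Although the epididymis sum rose from DR to DR-AL, 5 of its 8 markers were called lower and 3 higher, against 13.3% and 38.3% of loci. The 6 adipocyte markers summed to 38664, 32065 and 26283 CPM. The part of these cells in the members' values was not tested.

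Of the 14 other synthesis enzymes in fat, 7 were called higher and 3 lower in DR than in AL, against 35.2% and 10.4% of all loci. Nsdhl rose from 27.2 to 91.9 CPM and Mvd from 6.18 to 17.9 CPM. Srebf1 rose from 224 to 735 CPM in fat, and was 185 CPM in DR-AL, while Srebf2 rose from 52.3 to 94.0 CPM. In the lists of efflux and esterification 5 of 8 and 3 of 4 genes were called lower in DR, against 10.4% of all loci, led by Abcg8 (28.2 to 0.745 CPM), Abcg5 (30.7 to 1.23 CPM) and Lcat (77.0 to 3.20 CPM), genes with high levels in liver, which were lower in the same libraries as Apoa1. Of 6 genes of uptake and lysosomal handling 3 were called higher and 2 lower, against 35.2% and 10.4% of all loci.

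In colon the pattern was split. Sqle (62.1 CPM in AL, 105 CPM in DR, 55.1 CPM in DR-AL), Idi1 (60.03, 99.4 and 47.0 CPM), Fdps (33.4, 55.0 and 29.9 CPM) and Cyp51 (67.5, 98.0 and 54.5 CPM) were called higher in DR than in AL, 4 of 7 against 9.04% of 18242 loci. Fdft1 (86.5, 91.4 and 70.4 CPM) and Lss (24.5, 26.9 and 16.1 CPM) were not called. Insig1 was the only member called lower in DR, at 156, 111 and 155 CPM, against 10.6% of loci. Insig1 had a log2 value of -0.48 (-0.55 to -0.42), opposite in sign to the 4 enzymes called. At an assumed coefficient of variation of 0.1, Insig1 and Cyp51 were not called, whereas Sqle, Idi1 and Fdps were.

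From DR to DR-AL in colon the 6 enzymes were called lower, against 7.67% of loci, by 1.30-fold (Fdft1) to 2.11-fold (Idi1), and Insig1 was called higher, against 6.78%. Against AL, Idi1 and Lss were called lower in DR-AL, 2 of 7 against 8.50% of loci. Of 13 other synthesis enzymes 5 were called higher in DR than in AL, against 9.04% of loci, all by less than 2-fold. They were led by Acat2 (12.8 to 18.7 CPM), Sc4mol (118 to 170 CPM) and Nsdhl (31.1 to 41.4 CPM). Of 8 efflux genes and LXR targets 3 were called lower in DR than in AL, against 10.6% of loci. Among them Abca1, a cholesterol exporter of the cell membrane, fell from 24.7 to 11.0 CPM. No regulator of sterol sensing was called between DR and AL. The 5 markers of crypt proliferation summed to 93.9, 246 and 80.8 CPM in AL, DR and DR-AL, none at 0, and Mki67 stood at 45.4, 131 and 41.2 CPM. Their part in the members' values was not tested. At an assumed coefficient of variation of 0.2 no colon call in any of the 3 comparisons remained.

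In the brain the differences were small. In hypothalamus Idi1 (71.8 CPM in AL, 89.8 CPM in DR, 70.0 CPM in DR-AL) and Cyp51 (83.1, 105 and 93.4 CPM) were called higher in DR, 2 of 7 against 4.33% of 19320 loci, each close to the limit of 25%. With TMM or DESeq size factors 1 of them was called. Fdps (59.2, 63.0 and 50.7 CPM), Fdft1 (123, 134 and 119 CPM) and Lss (47.9, 51.5 and 44.8 CPM) were not called in any comparison. Sqle (91.3, 100.4 and 80.6 CPM) and Insig1 (96.1, 112 and 108 CPM) were not called either. Idi1 was called lower from DR to DR-AL, 1 of 7 against 6.80% of loci, and no member was called between DR-AL and AL. At an assumed coefficient of variation of 0.1 no member was called in this tissue. Of 14 other synthesis enzymes 1, Ebp, a sterol isomerase, was called higher in DR (15.4 to 19.5 CPM), against 4.33% of loci. No gene of the other 4 lists was called between DR and AL. Marker lists of other cells differed between these libraries. Of 6 hippocampus and telencephalic neuron markers, 4 were called higher and 1 lower in DR than in AL, against 4.33% and 2.72% of loci. They summed to 229, 208 and 155 CPM in AL, DR and DR-AL. Of 6 goblet cell markers, which summed to 17.3, 3.70 and 3.30 CPM, 5 were called lower in DR and 0 higher. Their part in the members' values was not tested.

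In hippocampus Idi1 (51.5 CPM in AL, 71.3 CPM in DR, 51.0 CPM in DR-AL) and Cyp51 (65.4, 85.6 and 67.8 CPM) were called higher in DR than in AL, 2 of 7 against 1.36% of 18804 loci. From DR to DR-AL 5 of 7 were called lower, against 1.26% of loci: Idi1, Cyp51, Fdps (39.8, 46.5 and 35.0 CPM), Fdft1 (90.1, 96.5 and 76.6 CPM) and Sqle (58.2, 72.1 and 57.5 CPM). Lss (34.9, 38.4 and 33.3 CPM) and Insig1 (67.2, 78.6 and 64.1 CPM) were not called. All 7 were highest in the DR library, by 1.07-fold (Fdft1) to 1.38-fold (Idi1) over AL, and no member was called between DR-AL and AL. At an assumed coefficient of variation of 0.1 no call was made in either comparison with DR. The 7 oligodendrocyte markers, a cell type that makes cholesterol for myelin, summed to 5873, 4809 and 5278 CPM in the hippocampus and 3866, 4278 and 5780 CPM in the hypothalamus, and their part was not tested. Of 14 other synthesis enzymes 3 were called higher in DR, against 1.36% of loci. They were Mvd (13.2 to 17.4 CPM), Sc4mol (76.0 to 95.9 CPM) and Idi2, which had no count in AL and 0.192 CPM in DR. No gene of the other 4 lists was called between DR and AL.

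**Figure D3:**
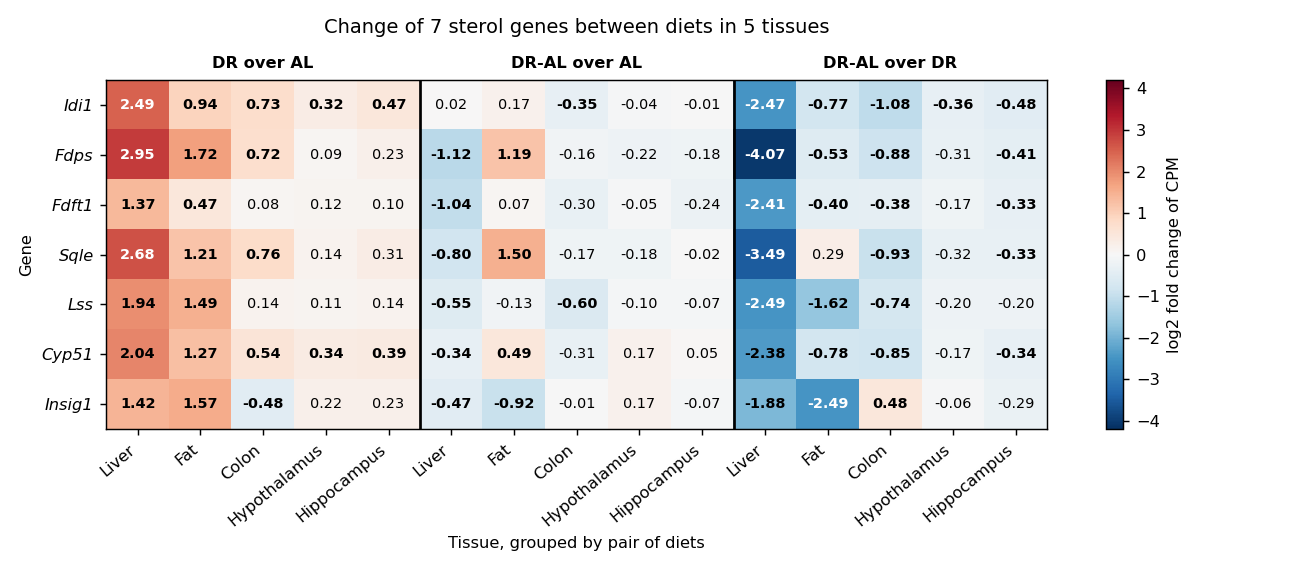
Cells give the log2 fold change of CPM for the 7 measured genes (rows) in 5 tissues, for DR over AL, DR-AL over AL and DR-AL over DR (column blocks), in red where the first library is higher and blue where it is lower, with called values in bold. The DR over AL block is red in every cell but Insig1 in colon (-0.48), and the strongest blue is Fdps in liver for DR-AL over DR (-4.07).

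Across tissues, the DR library was the highest of the 3 in 33 of the 35 pairs of a member and a tissue, whereas it was highest for 29.0% (hippocampus) to 43.6% (liver) of loci. The exceptions in CPM were Sqle in fat and Insig1 in colon. On the FPKM scale Sqle in fat was highest in DR (4.72 FPKM, against 3.33 in AL and 3.10 in DR-AL). On that scale Fdft1 in fat (25.7 FPKM in DR, 30.9 in AL) was an exception beside Insig1 in colon. So was Insig1 in hypothalamus (25.9 FPKM in DR, 26.6 in DR-AL). The DR library was highest in all 5 tissues for 5 of 7 members, against 0.753% of 11283 loci with a mean of at least 10 counts in each tissue, and for the same number of members with DESeq size factors or TMM. Centred on the mean of each tissue, log2 CPM of the 21 pairs of members over the 15 libraries had a median Pearson r of 0.90 (0.49 to 0.98), as a description, since all values share the same libraries. Without fat the median was 0.96, and without liver 0.79, with a lowest value of -0.11.

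**Figure D4:**
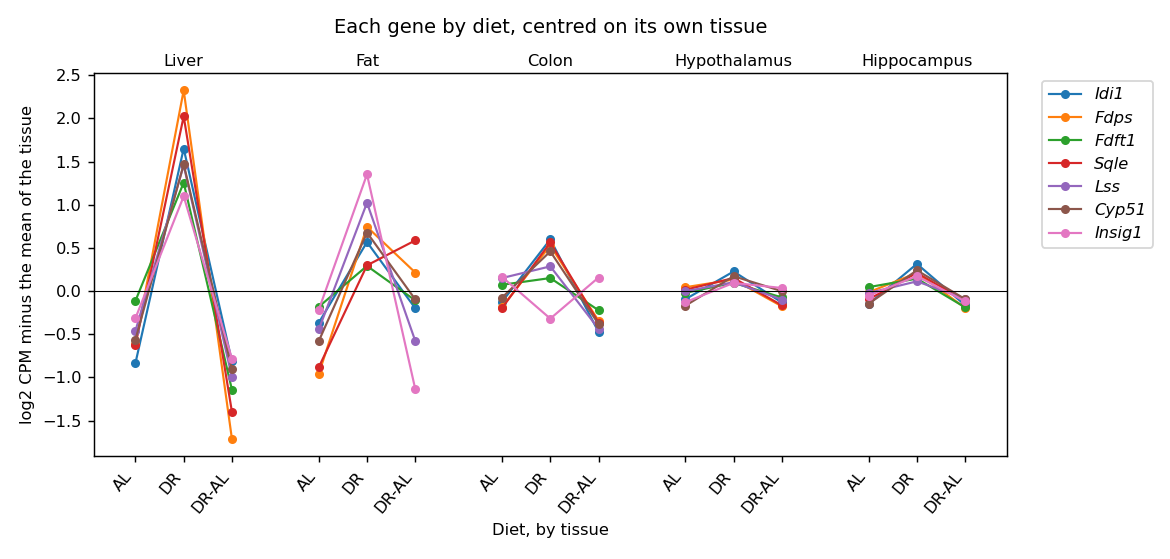
Points give log2 CPM of each of the 7 measured genes minus its mean over the 3 libraries of that tissue, for AL, DR and DR-AL in the 5 tissues, with lines joining the libraries of a tissue. The DR points stand above 0 in all tissues except for Insig1 in colon, and the spread narrows from liver to the 2 brain regions.

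The loci most like the members were mostly other enzymes of the pathway. Over 13350 loci with a mean of at least 5 CPM, the correlation with the mean centred profile of the members was highest for Mvd (0.997), Nsdhl (0.987), Mvk (0.978), Acat2 (0.976) and Nudt2 (0.972). It was lowest for Nfil3 (-0.965), 1300015D01Rik (-0.965), Slc25a25 (-0.961), Il1rn (-0.951) and Tmed5 (-0.941). The value was 0.930 for Srebf1, 0.837 for Srebf2 and -0.860 for Insig2. These profiles rest on the same 15 libraries and are weighted by liver, where the members vary most.

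A fit over all 15 libraries (edgeR quasi-likelihood test with Benjamini-Hochberg adjustment, tissue and diet as terms) asked whether a diet difference was shared by the 5 tissues. The tissues of a diet came from the same group of mice and are not independent, yet they stood in for replicates here. No member was called for any of the 3 pairs of diets, and for DR over AL 1 of 17476 loci, 0.00572%, was called higher. At an unadjusted p under 0.05, 207 loci were higher and 450 lower for DR over AL, 5 of the 7 members among the former, and DESeq2 called no member either. No gene of the 5 related lists was called in this fit.

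The same type of model with terms for one tissue and diet, added after the data were seen, compared the diet difference in that tissue with the other 4. The tissue tested has 1 library per diet, so its spread is assumed to be that among the other 4, and the result depends on which of them enter. With all 4, the fall from DR to DR-AL in liver passed the test against the other tissues for 5 of 7 members, against 2.14% of 19269 loci. The differences in log2 fold change were -3.44 for Fdps (edgeR quasi-likelihood, adjusted p = 0.0187), -3.10 for Sqle (adjusted p = 0.0258), -2.00 for Fdft1 (adjusted p = 0.0079), -1.76 for Cyp51 (adjusted p = 0.0315) and -1.71 for Idi1 (adjusted p = 0.0203). Lss differed by -1.69 (adjusted p = 0.154) and Insig1 by -1.21 (adjusted p = 0.605). Without fat all 7 were called, and without colon, hypothalamus or hippocampus none was, with the differences of the 5 genes between -3.54 and -1.55. For DR over AL the liver differences ran from 0.95 (Insig1) to 2.30 (Fdps) and none was called (edgeR adjusted p from 0.0997 to 0.952), nor was any of the 19269 loci, of which 1079 were higher and 442 lower at an unadjusted p under 0.05. No member was called for a term of fat, colon, hypothalamus or hippocampus.

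Levels between genes were compared per length, as FPKM. In AL liver Insig1 had the highest level (126 FPKM), followed by Fdps (74.96 FPKM) and Fdft1 (62.5 FPKM), with Sqle (13.2 FPKM) and Lss (12.5 FPKM) lowest. In DR liver Fdps led with 546 FPKM, ahead of Insig1 (319 FPKM) and Idi1 (292 FPKM). In AL hypothalamus the order was Fdps, Insig1, Fdft1, Idi1, Sqle, Cyp51 and Lss, from 25.6 to 5.23 FPKM, and the AL hippocampus ran from 24.3 FPKM (Fdps) to 4.98 FPKM (Lss). Lss was the lowest of the 7 in 12 of the 15 libraries, and Sqle in the other 3.

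Over the 3 libraries of a tissue, the mean level of Idi1 was 132 ± 139 FPKM in liver, 32.7 ± 8.92 in colon, 21.1 ± 2.22 in hypothalamus, 20.8 ± 4.66 in hippocampus and 9.52 ± 5.20 in fat (SD, n = 3 diets). The distances between tissues depend on the scale. In CPM its means were 150, 68.8, 77.2, 57.9 and 43.3 in the same order of tissues, with hypothalamus above colon. In FPKM Insig1 followed another order, with 176 ± 126 FPKM in liver, 65.6 ± 14.4 in colon, 36.7 ± 30.7 in fat, 25.1 ± 2.12 in hypothalamus and 24.0 ± 2.93 in hippocampus (SD, n = 3 diets). In CPM its means were 203 in liver, 181 in fat, 141 in colon, 105 in hypothalamus and 70.0 in hippocampus, with fat above colon. On the FPKM scale liver had the highest mean for all 7 members, but in CPM it did not for Sqle, Fdft1 and Lss, where hypothalamus (90.7 CPM, Sqle; 48.1 CPM, Lss) and fat (154 CPM, Fdft1) had the highest mean. The liver mean of Sqle, 33.0 ± 39.5 FPKM beside 31.7 ± 9.90 in colon (SD, n = 3 diets), rested on the DR library, since AL liver held 13.2 FPKM and AL colon 26.6 FPKM.

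In the 15-library fit (edgeR, Benjamini-Hochberg adjustment, difference of at least 25%), in which the 3 diets stood in for replicates of a tissue, liver was above the mean of the other tissues for 6 of 7 members, all but Sqle, against 32.6% of 17476 loci. The log2 differences of these 6 ran from 1.01 (Lss) to 2.02 (Fdps), with a median over all loci of -0.33. Fat was below the others for Sqle, Idi1 and Cyp51, 3 of 7 against 24.5% of loci, and hippocampus for Insig1, 1 of 7 against 33.6% of loci. Colon and hypothalamus had no call, and hypothalamus and hippocampus did not pass the test against each other for any member (edgeR adjusted p from 0.569 to 0.799). With library totals in place of TMM the median over all loci in liver was -1.36 and 1 member was called higher there, and without the DR libraries 3 were.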

How the data were processed

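RNA-Seq was measured in 15 libraries, each from the RNA of 1 tissue and 1 diet pooled from 5 mice, with rRNA depleted and strand kept. The authors trimmed reads, aligned them with Strand software and removed duplicates. Their methods name mm10 and the labels name mm9 and DESeq2, and contigs of the table are those of mm9, so positions printed here are those of GRCm38 and not those of the table. How reads matching pseudogenes were counted is not given in the sources used here. The deposited counts are whole numbers per locus and were not normalized. The authors scaled the deposited FPKM values by length and fragments, and the methods name a normalization to the AL library of each tissue without saying whether it entered these values. Loci with no gene name held 0.258 to 1.39% of counts and were left out.

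CPM was computed from totals of named loci. Two-library comparisons used the Z test of the methods (square roots of counts over totals, Poisson variance, two-sided) on loci with at least 1 count in the tissue, and log2 fold changes with a pseudocount of 0.5. Intervals are exact Clopper-Pearson at 95% and cover counting error only. Fits over 15 libraries used edgeR 4.0.16 (TMM, filterByExpr, quasi-likelihood, common biological coefficient of variation 0.301) in R 4.3.3, with DESeq2 1.42.0, other scalings, filters and edgeR's exact test at an assumed coefficient of variation of 0.1 or 0.2 as alternatives. Such p-values measure the spread between tissues or diets, not between mice. Both tests were tested on simulated data. The 8 genes and the lists were chosen with earlier results of these data known. Named were all 8, the 3 list genes with the largest change, list genes of known role, and the 5 loci most and least correlated with the mean profile. Where several loci carried a name, that with the most counts was used. The values of 1 list gene that the rule would name are not reported here.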

Additional observations from a re-analysis of the deposited data

Results flagged for a closer look

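The fall from DR to DR-AL differed between liver and the other 4 tissues, by an edgeR quasi-likelihood test of the liver by diet term, for 5 members. The difference in log2 fold change was -3.44 for Fdps, -3.10 for Sqle, -2.00 for Fdft1, -1.76 for Cyp51 and -1.71 for Idi1, and in liver all 5 were lower in DR-AL than in DR. The test was added after the data were seen, has 1 liver library per diet whose spread is assumed to be that among the other tissues, and made no call for these genes when colon, hypothalamus or hippocampus was left out. Its result also changed when fat was left out. The fat libraries differed in markers of other cells, and the part of these cells was not tested.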

How the results depend on the processing

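No paired analysis was possible because each tissue and diet has 1 library and the labels give no replicate numbers, and tissue entered the 15-library fits as a term in place of a block. Totals without the 10 most abundant loci, or loci with a mean of 10 counts or more, moved no count of members called by over 1.5 times. With DESeq size factors, 2 members were lower in fat DR-AL than in AL and 1 was higher in hypothalamus DR than in AL. With TMM these counts were 3 and 1, and 0 were lower in hypothalamus DR-AL than in DR. The cause was not tested.

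With the edgeR exact test at a coefficient of variation of 0.1, 3 members were lower in liver DR-AL than in AL, and the count was 0 for members lower in colon DR than in AL, lower in colon DR-AL than in AL, higher in colon DR-AL than in DR, and for the calls in hypothalamus and hippocampus, both DR over AL and DR-AL over DR. At 0.2 the count lower in fat DR-AL than in DR was 2, and it was 0 for liver and fat DR-AL lower than AL, for all colon calls and for all hypothalamus and hippocampus calls. This setting adds assumed spread by construction. The calls of liver DR over AL, liver DR-AL over DR and fat DR over AL stayed within 1.5 times of their counts at both. Among these, Fdft1 lost its call in liver DR over AL at 0.2. In fat DR over AL, Fdft1 lost its call at 0.1 and 0.2, and Idi1 at 0.2.

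On the FPKM scale, with pseudocounts of 0.1 and 1, fat DR-AL over AL had 0 members higher and 6 lower, colon DR-AL over AL had 1 lower, hypothalamus had 0 higher in DR than in AL and 0 lower in DR-AL than in DR, and hippocampus DR over AL had 6 and 4 higher. Members at least 2-fold higher in fat DR than in AL numbered 0 at both, a count added after seeing the data. Reversed log2 values at these 2 pseudocounts were -0.27 and -0.26 for Fdft1 in fat DR over AL, and in fat DR-AL over AL -0.10 and -0.077 for Sqle, -0.43 and -0.40 for Fdps, and -1.08 and -0.90 for Cyp51. The fat FPKM carry a scaling of their own (medians of 0.633 in DR and 0.324 in DR-AL of the AL value per CPM).

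In the 15-library fits, no setting called a member for a shared diet effect. With library totals, added after seeing the data, 1 member was higher in liver, 1 lower in fat and 1 higher in hypothalamus than in the other tissues. Leaving out each diet in turn gave 3 to 6 members higher in liver, 2 to 4 lower in fat, 0 to 1 higher in colon, 0 to 2 higher in hypothalamus and 0 to 1 lower in hippocampus. Leaving out each other tissue gave 0 to 7 members for the liver term. With 1 pooled library per group, the spread between mice is unknown.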
